A study of Mus musculus with 16 samples.

Results

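The genes described here run cholesterol synthesis, uptake control and efflux, and 30 were taken by symbol from the 23284 gene symbols of the deposited count table. They comprise 16 synthesis enzymes, 4 regulators and carriers, and 10 genes of efflux, storage and turnover. They were followed in whole lumbar spinal cord, home of the hindlimb motor neurons, of mice 150 days old. The cKO_SOD1 group carried Atg7 cKO (read here as a conditional knockout of Atg7, which encodes an enzyme that autophagosome formation needs) together with SOD1G93A, a mutant human SOD1 transgene that causes motor neuron disease in mice. The cWT_SOD1 group carried the same transgene with Atg7 cWT, which stands for the wild-type allele of that cross. The cKO and cWT groups carried no transgene. Each group held 4 animals, given as biological replicates by the design text. The series title places the loss of autophagy in motor neurons, and the labels do not give the Cre driver.

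Cells sense cholesterol in the membrane of the endoplasmic reticulum. When it is scarce, Scap escorts the product of Srebf2 to the Golgi, where cleavage frees a transcription factor that switches on the synthesis enzymes, while Insig1 holds that complex back when sterols are plentiful. When it is plentiful, oxysterols bind the liver X receptors Nr1h2 and Nr1h3, which switch on exporters such as Abca1. In the cord most cholesterol sits in myelin and is made locally, because lipoproteins do not cross the blood-brain barrier.

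Library totals ran from 14989026 to 20892530 counts, and 15426 genes passed the filter on low counts. By Xist and Y-linked genes each group held 2 males and 2 females. Markers of oligodendrocytes, astrocytes, microglia, neurons and motor neurons had counts in all 16 libraries. Atg7 reached 20.4 to 29.6 CPM in cKO_SOD1 cords and 20.8 to 30.3 CPM in cWT_SOD1 cords. It reached 26.4 to 28.8 CPM in cKO cords and 29.7 to 35.1 CPM in cWT cords, where CPM is a library's count scaled to its TMM-adjusted total. Its log2 fold change was −0.17 for cKO over cWT (edgeR adjusted p = 0.9995), so whole-cord counts did not check the labels. The deleted exons are not given in the labels. Counts of Sod1 are of the mouse gene and do not show the human transgene. Hmgcs1, the synthase that forms HMG-CoA, was listed at 0 counts in all 16 libraries, and the authors' tables place its only loci on unplaced sequence of chromosome 13. It received no test, which left 29 members, of which 15 were synthesis enzymes.

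The promoters of the members are shown because the factor made from Srebf2 acts there, usually beside the factor NF-Y, which binds CCAAT. RefSeq gave a promoter for 23 of the 30 members on GRCm38.p6. CCAAT, on either strand, lay within 250 bases before the start in 12 of 13 synthesis enzymes (92.3%), all but Acat2. It lay there in 2 of 3 regulators and carriers (66.7%) and in 3 of 7 efflux, storage and turnover genes (42.9%), against 37.5% of 27025 genes in the same table. TCACNCCAC, a form of the sterol regulatory element, was found on either strand in 1 synthesis enzyme, Hmgcs1, in none of the other groups, and in 1.22% of all genes. Other forms of the sterol element were not searched, so a promoter without this one may hold another. A match rests on letters alone and does not show binding. Below are the 150 bases before the start of 4 synthesis enzymes chosen after they were seen to be lower in cWT_SOD1 cords, of Hmgcs1 for its sterol element, and of the exporter Abca1 for contrast, each written along the gene's own strand. Capitals mark CCAAT or its complement ATTGG and, in Hmgcs1, also the sterol element. The windows are chr13:8885456-8885605 (plus strand) for Idi1, chr5:4104698-4104847 (minus) for Cyp51, chr8:122443423-122443572 (minus) for Mvd, chr5:114444119-114444268 (plus) for Mvk, chr13:119690201-119690350 (plus) for Hmgcs1 and chr4:53159896-53160045 (minus) for Abca1.
Idi1: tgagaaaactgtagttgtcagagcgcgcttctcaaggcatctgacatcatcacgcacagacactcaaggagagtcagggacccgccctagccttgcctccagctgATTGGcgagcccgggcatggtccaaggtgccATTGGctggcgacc
Cyp51: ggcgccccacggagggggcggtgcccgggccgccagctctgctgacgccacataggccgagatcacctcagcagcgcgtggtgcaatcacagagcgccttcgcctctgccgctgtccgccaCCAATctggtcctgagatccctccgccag
Mvd: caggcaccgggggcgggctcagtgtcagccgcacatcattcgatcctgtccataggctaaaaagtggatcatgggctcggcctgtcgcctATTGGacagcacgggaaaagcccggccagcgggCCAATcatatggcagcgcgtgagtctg
Mvk: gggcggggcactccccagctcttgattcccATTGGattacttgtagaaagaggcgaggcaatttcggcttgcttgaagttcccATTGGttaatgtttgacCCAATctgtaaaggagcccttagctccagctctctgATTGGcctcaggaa
Hmgcs1: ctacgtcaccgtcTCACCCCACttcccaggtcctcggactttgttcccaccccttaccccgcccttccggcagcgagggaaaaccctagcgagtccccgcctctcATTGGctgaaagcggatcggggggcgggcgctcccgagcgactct
Abca1: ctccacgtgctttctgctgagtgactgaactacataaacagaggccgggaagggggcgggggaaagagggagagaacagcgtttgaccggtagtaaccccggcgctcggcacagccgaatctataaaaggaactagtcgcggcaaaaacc
The Mvk window held 4 matches to CCAAT, the Idi1 and Mvd windows 2 each, and the Cyp51 window 1. The Abca1 window held none. The printed choice does not stand for all members. The 3 efflux, storage and turnover genes with CCAAT were Npc2 and Soat1, which rose in cWT_SOD1 cords, and Cyp46a1, which fell. Ebp, a synthesis enzyme with CCAAT, did not pass the test there, and Acat2, without it, fell.

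Levels per transcript length, in the authors' FPKM, were led by synthesis genes and their regulators in the cords without the transgene. Insig1 was the most abundant member there, at 74.2 ± 9.00 FPKM in cKO cords and 76.9 ± 10.9 FPKM in cWT cords (mean ± SD, n = 4 each, as for all means here). Srebf2, Idi1, Sqle and Fdft1 followed within 45.2 to 50.1 FPKM in both groups, and the 1 SD ranges of neighbours in the order overlapped. Ch25h was the least abundant tested member at 1.13 ± 0.451 FPKM in cKO cords and 0.886 ± 0.299 FPKM in cWT cords. In cWT_SOD1 cords the order turned over, with Npc2 leading at 118 ± 21.2 FPKM. Apoc1 at 52.6 ± 24.3 FPKM and Abca1 at 49.2 ± 11.0 FPKM came next in cWT_SOD1 cords, and these 2 did not differ beyond their spread. Insig1 was the ninth there, at 25.4 ± 5.54 FPKM. In cKO_SOD1 cords Insig1 led again at 56.5 ± 9.66 FPKM, and its 1 SD range overlapped that of Npc2 at 52.1 ± 1.85 FPKM.

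With the transgene on the wild-type Atg7 background, most synthesis enzymes were lower. In cWT_SOD1 cords against cWT cords, 14 of 15 tested enzymes fell and none rose, where 33.1% of all tested genes fell and 66.3% changed in either direction. The groups did not overlap for these 14 enzymes, against 28.9% of all genes that were lower without overlap. Over all 15 tested enzymes the median log2 fold change was −1.09, a 2.12-fold fall, beside 0.0088 over all tested genes. In bulk cord, fewer cells of a type and less RNA per cell cannot be told apart.

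The 6 tested enzymes from acetyl-CoA to farnesyl diphosphate all fell, against 33.1% of all tested genes, with a median log2 fold change of −1.34. Idi1, which isomerises isopentenyl diphosphate (mm9 chromosome 13, 8884852 to 8891642), measured 4.92, 3.75, 3.96 and 4.58 CPM in cWT_SOD1 cords and 12.9, 11.3, 12.3 and 15.5 CPM in cWT cords. Every cWT_SOD1 library lay below every cWT library, and the log2 fold change was −1.60 ± 0.14 (approximate SE, edgeR adjusted p = 3.46e-08). Fdps, which makes farnesyl diphosphate, measured 10.6, 7.38, 9.74 and 10.01 CPM in cWT_SOD1 cords and 28.5, 26.9, 25.3 and 34.7 CPM in cWT cords. The groups were again apart, at −1.62 ± 0.14 (edgeR adjusted p = 2.74e-08). Mvd, the mevalonate diphosphate decarboxylase, measured 11.7, 8.83, 10.1 and 11.0 CPM in cWT_SOD1 cords and 22.9, 31.1, 28.8 and 32.5 CPM in cWT cords, a log2 fold change of −1.47 ± 0.16. The kinases Mvk and Pmvk and the acetyl-CoA acetyltransferase Acat2 fell by 1.20, 0.51 and 0.74 on the log2 scale.

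Of the 9 enzymes from squalene to cholesterol, 8 fell, against 33.1% of all tested genes, with a median of −1.04 over all 9. Cyp51, the lanosterol demethylase (mm9 chromosome 5, 4080674 to 4104697), measured 86.8, 53.6, 58.2 and 69.0 CPM in cWT_SOD1 cords and 176, 178, 177 and 219 CPM in cWT cords. No libraries overlapped, and the log2 fold change was −1.49 ± 0.12 (edgeR adjusted p = 1.32e-08). Sqle, the squalene epoxidase and a rate-limiting step, measured 70.7, 39.1, 48.3 and 52.4 CPM in cWT_SOD1 cords and 112, 131, 128 and 137 CPM in cWT cords. The cWT_SOD1 libraries spread widely for Sqle, replicate 1 being highest and replicate 2 lowest, and all were below the cWT libraries (−1.27 ± 0.13, edgeR adjusted p = 1.89e-07). The squalene synthase Fdft1 fell by 1.28, the lanosterol synthase Lss by 1.04, the sterol reductase Tm7sf2 by 1.02 and the demethylating dehydrogenase Nsdhl by 1.09 on the log2 scale. The ketosteroid reductase Hsd17b7 fell by 0.78 and Dhcr7, which completes cholesterol by a last reduction, by 1.04. Ebp, the sterol isomerase of the same stretch, was the exception at 23.9, 21.2, 23.4 and 23.6 CPM in cWT_SOD1 cords and 24.0, 24.0, 23.6 and 27.6 CPM in cWT cords. Its groups overlapped, and its log2 fold change of −0.11 had a 95% interval of −0.23 to 0.02 (edgeR adjusted p = 0.154). Loci of Fdft1, Lss, Tm7sf2, Srebf2 and Npc1 overlap another gene in the authors' tables, and whether strand was used in counting is not given.

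Of the 4 regulators and carriers 3 fell, against 33.1% of all tested genes, and 1 did not pass the test. Insig1, the sterol-sensing anchor that is itself a target of Srebf2 (mm9 chromosome 5, 28397952 to 28405202), measured 61.1, 36.7, 49.5 and 51.9 CPM in cWT_SOD1 cords and 130.5, 153, 154 and 185 CPM in cWT cords. The highest cWT_SOD1 library lay well below the lowest cWT library, and the log2 fold change was −1.64 ± 0.15 (edgeR adjusted p = 3.18e-08). Stard4, a carrier of cholesterol between membranes, measured 22.8, 11.3, 19.0 and 19.8 CPM in cWT_SOD1 cords and 55.1, 47.8, 45.3 and 61.4 CPM in cWT cords (−1.53 ± 0.16). Srebf2 itself measured 141, 119, 121 and 135 CPM in cWT_SOD1 cords and 213, 245, 233 and 236 CPM in cWT cords. It fell without overlap by 0.84 on the log2 scale (SE 0.06, edgeR adjusted p = 5.07e-09). Scap did not follow, with 86.6 to 96.7 CPM in cWT_SOD1 cords and 91.5 to 99.5 CPM in cWT cords (−0.01, 95% interval −0.11 to 0.08). On log2(FPKM + 0.1) the estimate for Scap was 0.028, of the other sign.

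Genes that export, store or oxidise cholesterol moved the other way. Of 10 tested, 7 rose in cWT_SOD1 cords, against 33.2% of all tested genes, 1 fell and 2 did not pass the test. The median log2 fold change of the 10 was 0.97, and 6 were higher without overlap, against 27.6% of all genes. Abca1, which loads cholesterol onto apolipoproteins (mm9 chromosome 4, 53043661 to 53172767), measured 384, 587, 596 and 402 CPM in cWT_SOD1 cords and 67.6, 64.3, 60.3 and 57.1 CPM in cWT cords. The lowest cWT_SOD1 library stood far above the highest cWT library, and the level was 7.90-fold higher (log2 2.98 ± 0.14, edgeR adjusted p = 1.42e-11). Ch25h, which makes an oxysterol and is known from activated macrophages (mm9 chromosome 19, 34548274 to 34549625), measured 10.9, 10.4, 8.27 and 9.15 CPM in cWT_SOD1 cords and 1.07, 0.685, 0.944 and 1.61 CPM in cWT cords. It was 8.92-fold higher (log2 3.16 ± 0.23), from 12 to 187 counts per library over the series.

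Apoc1, a small apolipoprotein, measured 6.64, 16.9, 15.4 and 7.09 CPM in cWT_SOD1 cords and 1.23, 0.799, 0.833 and 1.61 CPM in cWT cords. Replicates 2 and 3 of cWT_SOD1 held more than replicates 1 and 4, and all were above the cWT libraries (log2 3.36 ± 0.35, edgeR adjusted p = 1.98e-07). Npc2, which carries cholesterol out of lysosomes (mm9 chromosome 12, 86095509 to 86114062), measured 265, 402, 418 and 348 CPM in cWT_SOD1 cords and 133, 128, 136 and 148 CPM in cWT cords. Soat1, which esterifies cholesterol for storage (mm9 chromosome 1, 158358239 to 158404459), measured 81.0, 99.8, 98.3 and 84.3 CPM in cWT_SOD1 cords and 44.0, 43.9, 38.9 and 40.4 CPM in cWT cords. Neither gene's groups overlapped, with log2 fold changes of 1.39 ± 0.10 for Npc2 and 1.12 ± 0.07 for Soat1 (edgeR adjusted p = 3.67e-09 and 6.95e-10). Npc1, which works with Npc2, measured 186 to 207 CPM in cWT_SOD1 cords and 176 to 196 CPM in cWT cords and did not pass the test (0.06, edgeR adjusted p = 0.292), although limma on log2(FPKM + 0.1) called it at 0.12.

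The exporter Abcg1 rose by 0.21 on the log2 scale, with overlapping groups, and its call was lost without any 1 of cWT_SOD1 replicates 2 and 3 and cWT replicates 3 and 4 (edgeR adjusted p from 0.0568 to 0.0723). Of the liver X receptors, Nr1h3 measured 6.34, 9.50, 9.57 and 9.08 CPM in cWT_SOD1 cords and 4.76, 5.88, 4.67 and 4.26 CPM in cWT cords. It was higher without overlap (log2 0.82 ± 0.14, edgeR adjusted p = 5.64e-05). Nr1h2 measured 57.5 to 61.9 CPM in cWT_SOD1 cords and 60.9 to 64.8 CPM in cWT cords, without passing the test (−0.05). Cyp46a1, which hydroxylates cholesterol in neurons so that it can leave the tissue, was the member of this group that fell. It measured 32.0, 33.3, 27.2 and 41.2 CPM in cWT_SOD1 cords and 44.5, 50.9, 48.9 and 47.6 CPM in cWT cords, without overlap (−0.52 ± 0.09, edgeR adjusted p = 9.73e-05).

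**Figure D1:**
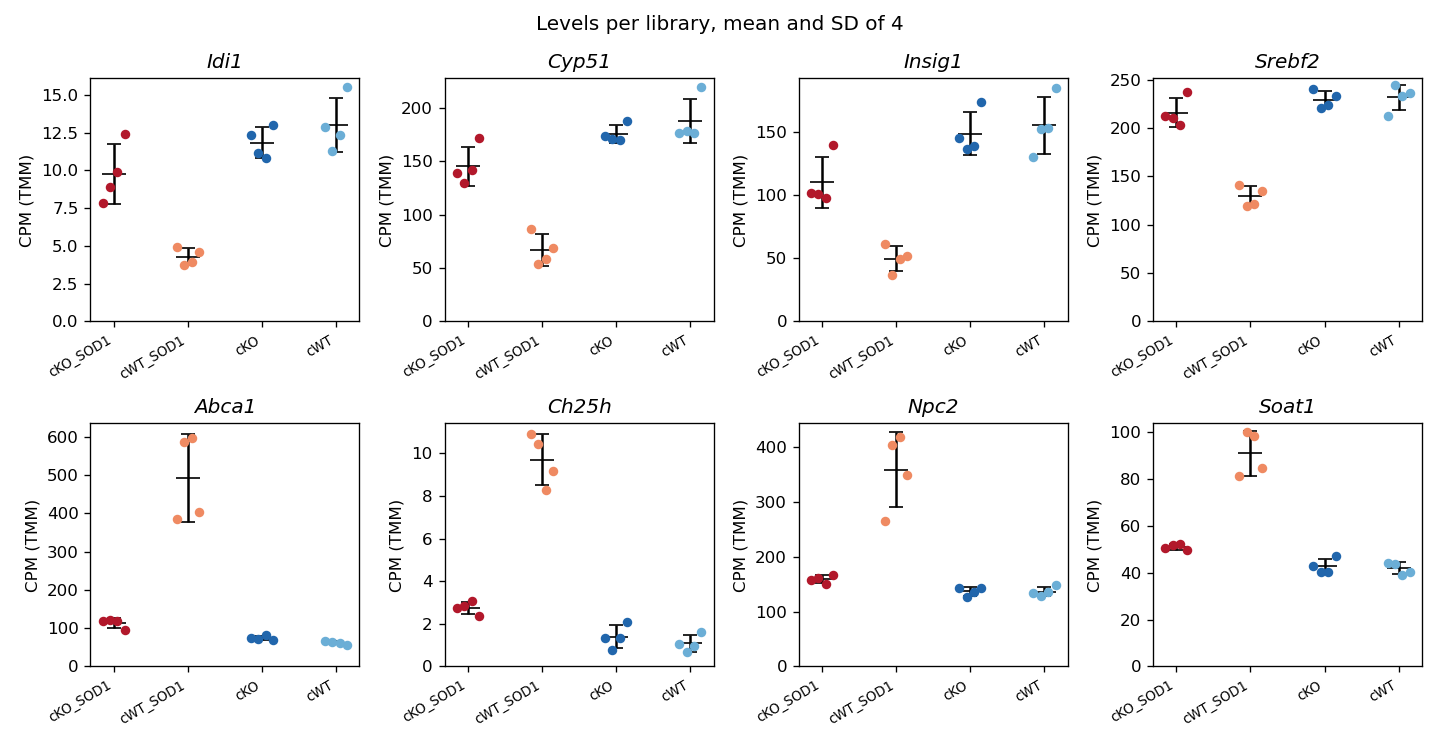
Levels in CPM (TMM-scaled, axis from 0) of 8 members in each library, with the mean and SD of the 4 libraries as a black bar and whiskers. Idi1, Cyp51, Insig1 and Srebf2 are lowest and Abca1, Ch25h, Npc2 and Soat1 highest in cWT_SOD1 cords, where Abca1 averaged 492 CPM against 62.3 CPM in cWT cords.

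Markers of cell types moved in the same comparison, where 33.2% of all tested genes rose and 33.1% fell. All 8 microglia and macrophage markers rose, and their summed level was 1434 to 2245 CPM in cWT_SOD1 cords and 267 to 298 CPM in cWT cords. Of 7 astrocyte markers 6 rose, with sums of 20070 to 24850 CPM in cWT_SOD1 cords and 7893 to 8301 CPM in cWT cords. All 6 neuron markers fell, to sums of 2450 to 3840 CPM in cWT_SOD1 cords, against 7751 to 8366 CPM in cWT cords. All 5 motor neuron markers fell as well, with sums of 80.9 to 104 CPM in cWT_SOD1 cords and 201 to 278 CPM in cWT cords. The oligodendrocyte list changed least among these, 6 of 10 falling and 1 rising at a median log2 fold change of −0.25. Its sums were 20980 to 25050 CPM in cWT_SOD1 cords and 25500 to 29130 CPM in cWT cords. The 3 markers of oligodendrocyte precursors gave sums of 190 to 246 CPM in cWT_SOD1 cords and 142 to 165 CPM in cWT cords, 2 of them rising, and of 3 endothelial markers 1 rose. None of the markers was at 0 in any library. The part of these shifts in the changes of the cholesterol genes was not tested.

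With the transgene on the Atg7 cKO background fewer of the genes passed the test. In cKO_SOD1 cords against cKO cords, 3 of 15 synthesis enzymes fell, where 2.48% of all tested genes fell and 7.28% changed in either direction. All 15 estimates were negative, with a median of −0.32 beside −0.0001 over all tested genes. Acat2 fell without overlap, at 45.4, 41.7, 42.6 and 46.3 CPM in cKO_SOD1 cords and 56.9, 51.8, 62.4 and 56.3 CPM in cKO cords (−0.37 ± 0.08, edgeR adjusted p = 0.00513). Fdps measured 19.6, 17.9, 20.3 and 28.4 CPM in cKO_SOD1 cords and 27.9, 31.6, 30.9 and 28.9 CPM in cKO cords. Replicate 4 of cKO_SOD1 reached into the cKO range, and the log2 fold change was −0.47 ± 0.13 (edgeR adjusted p = 0.0357). Dhcr7 fell by 0.34 (SE 0.10, edgeR adjusted p = 0.0350). Sqle was lower without overlap at 90.5, 88.5, 89.4 and 114 CPM in cKO_SOD1 cords and 119.7, 114, 115 and 134 CPM in cKO cords, but did not pass the test (−0.34, edgeR adjusted p = 0.129). Acat2 and Sqle were the 2 enzymes lower without overlap, against 11.0% of all genes.

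The count of 3 enzymes depended on single libraries. Without any 1 of cKO_SOD1 replicates 1, 2 and 3 or the 4 cKO libraries Fdps lost its call (adjusted p from 0.0571 to 0.116), and Dhcr7 lost its own without any 1 of these except cKO replicate 2 (from 0.0624 to 0.115). The count was 1 without any 1 of cKO_SOD1 replicates 1, 2 and 3 or cKO replicates 1 and 4. It was 8 without cKO_SOD1 replicate 4, 7 without cWT_SOD1 replicate 1, which enters through the shared estimate of spread, and 5 without cWT replicate 4. It was 8 with the 8 libraries compared alone, and 0 with limma on FPKM, where Acat2, Fdps and Dhcr7 had adjusted p of 0.0586, 0.0646 and 0.114 at a pseudocount of 0.1. Over all genes 65.9% of 1123 calls were higher in cKO_SOD1 cords with the TMM-scaled counts, and 81.7% of 1165 were with limma on log2(FPKM + 0.1). None of the 4 regulators and carriers passed the test, with log2 fold changes of −0.43 for Insig1, −0.34 for Stard4, −0.09 for Srebf2 and 0.07 for Scap. Stard4 was lower without overlap, at 30.8 to 41.8 CPM in cKO_SOD1 cords and 42.2 to 49.8 CPM in cKO cords. It was the only 1 of the 4 without overlap, where 11.0% of all genes were lower in that way.

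Of the efflux, storage and turnover genes 3 of 10 rose in cKO_SOD1 cords, against 4.80% of all tested genes. Abca1 measured 119, 120.3, 118 and 94.8 CPM in cKO_SOD1 cords and 75.6, 70.7, 81.1 and 68.0 CPM in cKO cords. The groups were apart and the level 1.53-fold higher (log2 0.61 ± 0.13, edgeR adjusted p = 0.00564). Ch25h measured 2.75, 2.83, 3.07 and 2.39 CPM in cKO_SOD1 cords and 1.33, 0.796, 1.33 and 2.10 CPM in cKO cords (log2 0.98 ± 0.24, edgeR adjusted p = 0.0151). Its call was lost without cKO_SOD1 replicate 3 or cKO replicate 2, at adjusted p of 0.0506 and 0.0566. Soat1 rose by 0.26 (edgeR adjusted p = 0.0364), and lost its call without any 1 of the 4 cKO_SOD1 libraries or cKO replicates 1, 2 and 3 (adjusted p from 0.0573 to 0.120). The count of 3 was 1 without cKO_SOD1 replicate 3 or cKO replicate 2. Npc2 was higher without overlap as well, at 157, 160.2, 149 and 167 CPM in cKO_SOD1 cords and 142, 126, 135 and 143 CPM in cKO cords, and did not pass the test (0.22, edgeR adjusted p = 0.235). These 4 of 10 genes were higher without overlap, against 9.91% of all genes.

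Markers moved here too, where 4.80% of all tested genes rose and 2.48% fell. Of the microglia and macrophage markers 6 of 8 rose, with sums of 522 to 555 CPM in cKO_SOD1 cords and 260 to 358 CPM in cKO cords, and of the astrocyte markers 2 of 7 rose, with sums of 11680 to 12250 CPM in cKO_SOD1 cords and 7660 to 8467 CPM in cKO cords. Of the neuron markers 4 of 6 fell, with sums of 5314 to 5813 CPM in cKO_SOD1 cords and 7395 to 7733 CPM in cKO cords. All 5 motor neuron markers fell, to sums of 71.6 to 98.9 CPM in cKO_SOD1 cords, against 185 to 227 CPM in cKO cords. Oligodendrocyte marker sums overlapped, at 25270 to 29240 CPM in cKO_SOD1 cords and 26170 to 28640 CPM in cKO cords, with 1 of 10 markers rising. Their part in the small changes of the cholesterol genes was not tested.

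**Figure D2:**
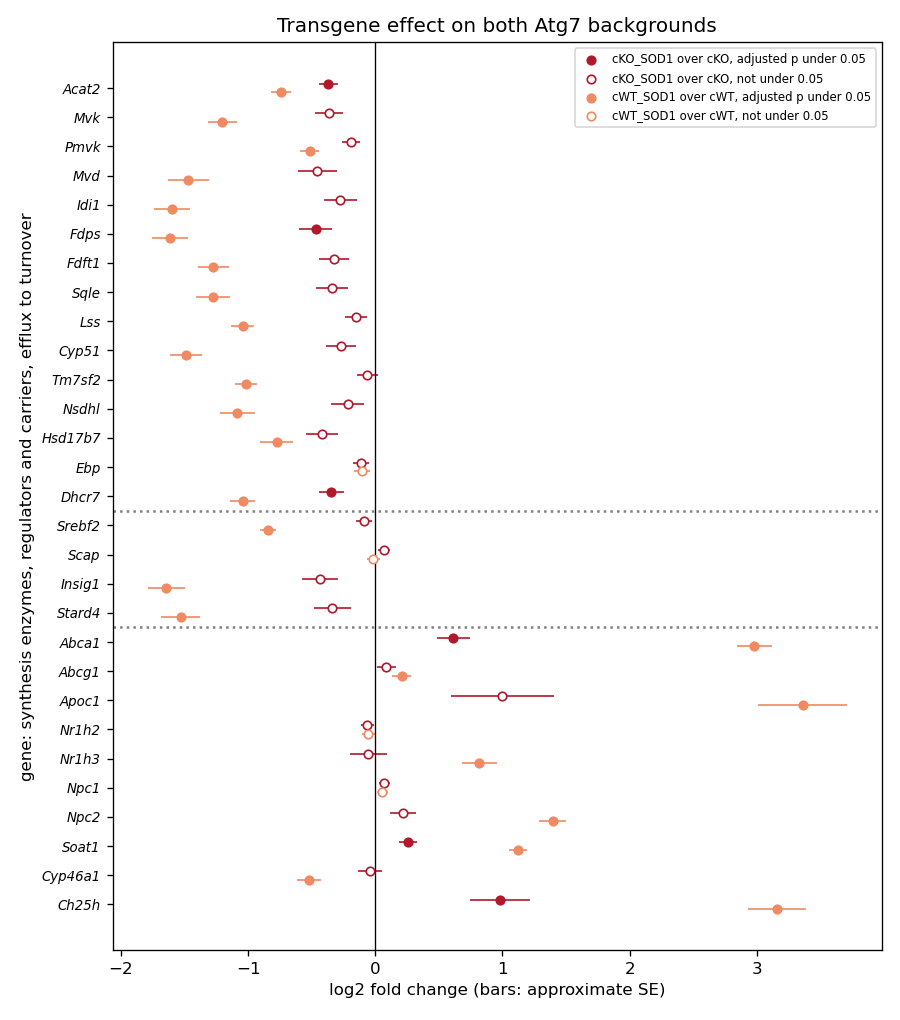
Log2 fold change (points) with its approximate SE (bars) of the 29 tested members for the transgene on the Atg7 cKO background (dark red) and on the cWT background (orange), filled where the adjusted p is under 0.05. Dotted lines part synthesis enzymes, regulators and carriers, and efflux to turnover genes; the dark red points lie nearer to 0 than the orange points for most members.

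Among transgene carriers, cords with Atg7 cKO had higher synthesis transcripts and lower efflux transcripts. In cKO_SOD1 cords against cWT_SOD1 cords, 14 of 15 synthesis enzymes rose, where 29.1% of all tested genes rose and 58.2% changed in either direction. The median log2 fold change of all 15 was 0.79, and 13 enzymes were higher without overlap, against 25.0% of all genes. Idi1 measured 7.84, 8.90, 9.88 and 12.4 CPM in cKO_SOD1 cords, against 3.75 to 4.92 CPM in cWT_SOD1 cords. The groups were apart, at a log2 fold change of 1.19 ± 0.15 (edgeR adjusted p = 2.33e-06). Cyp51 measured 138, 129, 142 and 171 CPM in cKO_SOD1 cords, against 53.6 to 86.8 CPM in cWT_SOD1 cords. It was 2.17-fold higher without overlap (log2 1.12 ± 0.12, edgeR adjusted p = 7.41e-07). Fdps and Mvd were higher by 1.19 and 0.94 on the log2 scale. Hsd17b7 was called at the margin, with overlapping groups (0.31, edgeR adjusted p = 0.0493). Its call was lost without any 1 of cKO_SOD1 replicates 1, 3 and 4, cWT_SOD1 replicates 2, 3 and 4, cKO replicates 1, 2 and 3 and cWT replicates 2 and 3 (adjusted p from 0.0524 to 0.212), and its estimate was 0.18 without cKO_SOD1 replicate 4. Ebp did not pass the test, at −0.0016 with a 95% interval of −0.13 to 0.12.

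Insig1 measured 102, 101, 98.2 and 140.0 CPM in cKO_SOD1 cords, against 36.7 to 61.1 CPM in cWT_SOD1 cords, and Srebf2 measured 212, 211, 203 and 237 CPM in cKO_SOD1 cords, against 119 to 141 CPM in cWT_SOD1 cords. Neither gene's groups overlapped, with log2 fold changes of 1.15 ± 0.15 and 0.74 ± 0.06 (edgeR adjusted p = 3.52e-06 and 7.85e-08). Stard4 rose too, by 1.02, so that 3 of the 4 regulators and carriers rose, against 29.1% of all tested genes. Scap did not pass the test (0.08). Of the efflux, storage and turnover genes 6 of 10 fell, where 29.1% of all genes fell, at a median of −0.86 over the 10, and all 6 were lower without overlap, against 24.1% of all genes. Abca1 fell to 113 ± 12.2 CPM in cKO_SOD1 cords, against 492 ± 115 CPM in cWT_SOD1 cords (log2 −2.12 ± 0.13, edgeR adjusted p = 2.60e-09). Apoc1 measured 1.29, 2.41, 2.38 and 2.04 CPM in cKO_SOD1 cords, against 6.64 to 16.9 CPM in cWT_SOD1 cords (log2 −2.50 ± 0.32). Ch25h, Npc2, Nr1h3 and Soat1 fell by 1.81, 1.18, 0.88 and 0.84. Cyp46a1 alone rose, at 49.3, 52.7, 44.4 and 44.4 CPM in cKO_SOD1 cords and 27.2 to 41.2 CPM in cWT_SOD1 cords (log2 0.51 ± 0.09). Nr1h2, Npc1 and Abcg1 did not pass the test, and Abcg1 was called without cWT_SOD1 replicate 1 (−0.24, edgeR adjusted p = 0.00249).

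Sums of microglia, astrocyte and neuron markers in cKO_SOD1 cords stood between those of cWT_SOD1 cords and those of the groups without the transgene. Microglia and macrophage markers summed to 522 to 555 CPM in cKO_SOD1 cords, against 1434 to 2245 CPM in cWT_SOD1 cords, all 8 being lower. Astrocyte markers summed to 11680 to 12250 CPM in cKO_SOD1 cords, against 20070 to 24850 CPM in cWT_SOD1 cords, with 6 of 7 lower. Neuron markers summed to 5314 to 5813 CPM in cKO_SOD1 cords, against 2450 to 3840 CPM in cWT_SOD1 cords, with 6 of 6 higher. Oligodendrocyte markers summed to 25270 to 29240 CPM in cKO_SOD1 cords, against 20980 to 25050 CPM in cWT_SOD1 cords, with 6 of 10 higher and 1 lower. Motor neuron markers overlapped, at sums of 71.6 to 98.9 CPM in cKO_SOD1 cords and 80.9 to 104 CPM in cWT_SOD1 cords. Of these 5 markers 1 was lower, where 29.1% of all tested genes were lower and 29.1% higher. Of 3 oligodendrocyte precursor markers 2 were lower, both without overlap, where 24.1% of all tested genes were lower without overlap. Of 3 endothelial markers 1 was lower. The part of these marker shifts in the cholesterol result was not tested.

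Without the transgene, none of the 29 tested members passed the test between cKO and cWT cords. In cKO cords against cWT cords edgeR called 4 of the 15426 tested genes (0.0259%), 1 higher (0.00648%) and 3 lower (0.0194%), with 543 at an unadjusted p under 0.05, and DESeq2 called 17. The synthesis enzymes had a median log2 fold change of −0.06, from −0.19 (Nsdhl) to 0.06 (Acat2). The efflux, storage and turnover genes had a median of 0.015, from −0.14 (Apoc1) to 0.37 (Ch25h). None of the members reached an unadjusted p under 0.05, the lowest being 0.0580 for Tm7sf2. Abca1 alone was without overlap, at 75.6, 70.7, 81.1 and 68.0 CPM in cKO cords and 67.6, 64.3, 60.3 and 57.1 CPM in cWT cords, where 1.55% of all genes were higher and 1.93% lower without overlap. Its log2 fold change was 0.24, with a 95% interval of −0.01 to 0.50 (edgeR adjusted p = 0.9995). For Idi1 the interval was −0.39 to 0.12, for Insig1 −0.34 to 0.21 and for Npc2 −0.20 to 0.20, so changes of the size measured for cWT_SOD1 over cWT lay outside them.

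The difference between both transgene effects was tested as an interaction, the log2 transgene effect in cKO minus that in cWT. It was above 0 and called for 13 of 15 synthesis enzymes, where 23.2% of all tested genes were called in that direction and 45.0% in either. Hsd17b7 and Ebp were the exceptions. The median over all 15 was 0.89, led by Idi1 at 1.33 ± 0.19 (edgeR adjusted p = 4.74e-05) and Cyp51 at 1.22 ± 0.17 (edgeR adjusted p = 3.11e-05). Srebf2, Insig1 and Stard4 were called in the same direction at 0.75, 1.21 and 1.19. For 6 of 10 efflux, storage and turnover genes the interaction was below 0 and called, against 21.8% of all genes. Abca1 had −2.37 ± 0.18 (edgeR adjusted p = 2.18e-07), Apoc1 −2.36, Ch25h −2.18 and Npc2 −1.18. Cyp46a1 was called above 0 at 0.48. Across the 29 members the log2 effects of the transgene on both backgrounds, which share no library but were fitted together, had a Pearson correlation of 0.95 across genes, which are not independent replicates, and the same sign in 27. Among members called in cWT the median ratio of the effect in cKO to that in cWT was 0.255. Picking members by their call in cWT can lower this ratio. The correlation spans gene groups that moved in opposite directions. Neither the correlation, the sign count nor the ratio was computed over all tested genes. Of all tested genes 66.3% were called for the transgene in cWT and 7.28% in cKO.

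**Figure D3:**
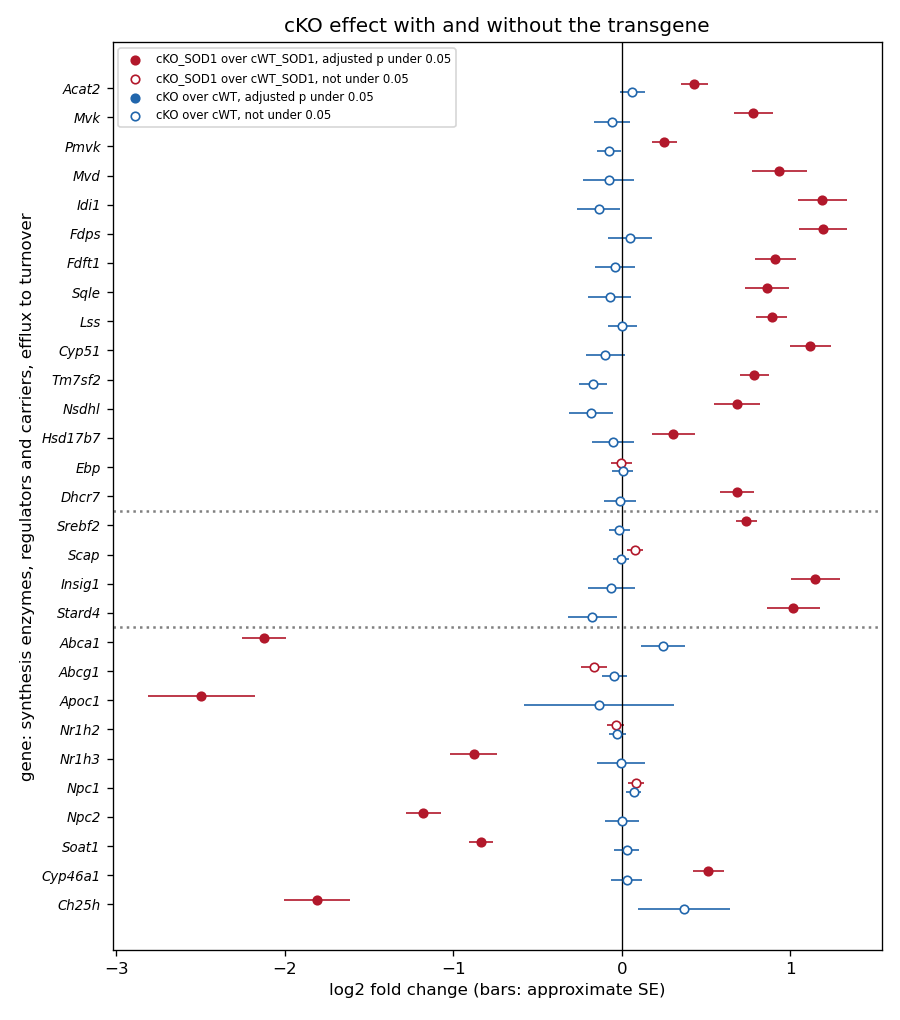
Log2 fold change (points) with its approximate SE (bars) of the 29 tested members for cKO_SOD1 over cWT_SOD1 (dark red) and cKO over cWT (blue), filled where the adjusted p is under 0.05. The blue points lie near 0 throughout, while dark red points run to 1.19 for Idi1 and Fdps and to −2.50 for Apoc1.

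Single animals were placed by the mean of their log2(CPM + 0.5) over each gene group, after each gene's mean over the 16 libraries was taken off. The synthesis enzymes lay at −0.09, −0.10, −0.02 and 0.28 in cKO_SOD1 replicates 1 to 4, and at −0.49, −0.89, −0.75 and −0.66 in cWT_SOD1 replicates 1 to 4. They lay between 0.25 and 0.40 in cKO cords and between 0.27 and 0.53 in cWT cords. The cWT_SOD1 libraries were thus apart from all others, and cKO_SOD1 replicate 4 alone of its group reached the range of the groups without the transgene. The efflux, storage and turnover genes lay between −0.12 and −0.01 in cKO_SOD1 cords and between 0.54 and 0.94 in cWT_SOD1 cords. They lay between −0.38 and −0.27 in cKO cords and between −0.42 and −0.33 in cWT cords, so that here no transgenic library met the groups without the transgene. Among cWT_SOD1 libraries, replicate 2 had both the lowest synthesis value and the highest efflux value, and replicate 1 both the highest synthesis value and the lowest efflux value.

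**Figure D4:**
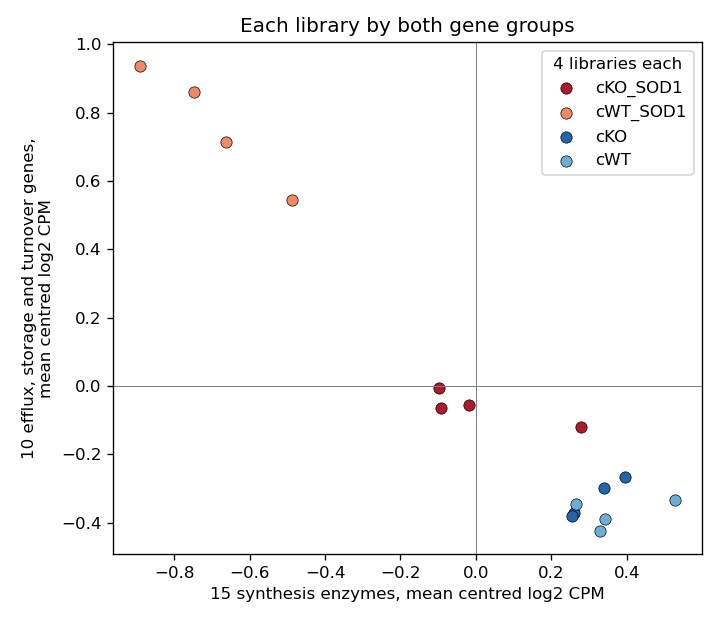
Mean centred log2 CPM of the 15 tested synthesis enzymes (horizontal) and of the 10 efflux, storage and turnover genes (vertical) in each of the 16 libraries, coloured by group. The cWT_SOD1 libraries sit at the upper left (synthesis −0.89 to −0.49, efflux 0.54 to 0.94), the cKO_SOD1 libraries near the middle, and the cKO and cWT libraries at the lower right.

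Spread between animals differed by group and by gene list. The coefficient of variation of CPM had a median of 12.8% over the synthesis enzymes in cKO_SOD1 cords and 14.5% in cWT_SOD1 cords, beside 7.67% in cKO cords and 8.58% in cWT cords. Over the efflux, storage and turnover genes the median was 7.31% in cKO_SOD1 cords and 14.9% in cWT_SOD1 cords. It was 7.1% in cKO cords and 6.35% in cWT cords for that list, so cKO_SOD1 cords stood little apart there. The spread over all tested genes was not computed. Ebp varied least among the synthesis enzymes in cKO_SOD1 and cWT_SOD1 cords, at 3.95% and 5.39%. Of all members in all groups Apoc1 in cWT_SOD1 cords varied most, at 46.9%.

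Other genes of the pathway were listed with the members. Of 9 further synthesis genes tested, 7 fell and 1 rose in cWT_SOD1 cords against cWT cords, beside 33.1% and 33.2% of all tested genes. In cKO_SOD1 cords against cWT_SOD1 cords 6 rose, beside 29.1% of all tested genes. Sc5d, a sterol desaturase, changed by −1.01 on the log2 scale for cWT_SOD1 over cWT and by 0.76 for cKO_SOD1 over cWT_SOD1. No further synthesis gene was called for cKO_SOD1 over cKO, where 7.28% of all tested genes were called in either direction. There 7 of the 9 estimates were negative, and 4 genes were lower without overlap, against 11.0% of all genes.

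Of 16 further genes of uptake and transport 5 rose and 4 fell in cWT_SOD1 cords against cWT cords, no larger shares than the 33.2% and 33.1% of all tested genes. The log2 fold changes of all 16 there ran from −1.83 to 1.68, with a median of 0.021. Mylip and Srebf1, described below, both rose, and the gene with the largest fall is not named. In cKO_SOD1 cords against cWT_SOD1 cords 4 rose and 4 fell, beside 29.1% of all tested genes in each direction. Mylip, a liver X receptor target whose product marks lipoprotein receptors for breakdown, averaged 17.9 ± 0.987 CPM in cKO_SOD1 cords and 39.9 ± 6.37 CPM in cWT_SOD1 cords. It averaged 12.6 ± 0.347 CPM in cKO cords and 12.5 ± 0.975 CPM in cWT cords. Its log2 fold change was 1.68 ± 0.10 for cWT_SOD1 over cWT, 0.50 ± 0.10 for cKO_SOD1 over cKO and −1.16 ± 0.10 for cKO_SOD1 over cWT_SOD1 (edgeR adjusted p = 2.59e-10, 0.00391 and 4.86e-08). Srebf1, the factor of fatty acid synthesis and also a liver X receptor target, rose by 0.75 in cWT_SOD1 cords against cWT cords, where Srebf2 fell. Srebf1 fell by 0.58 in cKO_SOD1 cords against cWT_SOD1 cords.

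Of 16 further genes of lipoproteins, lysosomal release and turnover 10 rose and 4 fell in cWT_SOD1 cords against cWT cords, beside 33.2% and 33.1% of all tested genes. The log2 fold changes of all 16 there ran from −0.74 to 5.14, with a median of 0.75. Lpl and Clu, described below, were among those that rose, and none that fell is named. In cKO_SOD1 cords against cKO cords 4 rose, beside 4.80% of all tested genes. In cKO_SOD1 cords against cWT_SOD1 cords 9 fell and 4 rose, beside 29.1% of all tested genes in each direction. Lpl, the lipoprotein lipase, averaged 37.4 ± 3.02 CPM in cKO_SOD1 cords and 169.9 ± 23.0 CPM in cWT_SOD1 cords, beside 10.3 ± 4.29 CPM in cKO cords and 5.97 ± 1.38 CPM in cWT cords. Its log2 fold change was 4.83 ± 0.22 for cWT_SOD1 over cWT and 1.86 ± 0.20 for cKO_SOD1 over cKO (edgeR adjusted p = 1.40e-11 and 2.00e-05). Clu, an apolipoprotein made by astrocytes, rose by 1.85 and 0.63 in the same comparisons.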

How the data were processed

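Illumina TruSeq libraries of poly-A RNA from 16 lumbar cords were sequenced, per the labels' protocols. The authors deposited raw gene counts, whole numbers with no scaling, and FPKM values, scaled for transcript length and depth. The submitters' processing notes name bcl2fastq 1.8.4, TopHat2 2.0.4, Cufflinks 2.0.2 and mm9, without roles; no source used here names the counting tool or its strand setting. Reads of overlapping or near-identical genes may therefore be shared.

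Counts were scaled by TMM and filtered with filterByExpr, and 1 coefficient per group was fitted over all 16 libraries with edgeR 4.0.16 (quasi-likelihood F-test, R 4.3.3). P-values were adjusted by Benjamini-Hochberg over 15426 genes, and a gene was called at an adjusted p under 0.05. The SE is the log2 fold change divided by the root of F, and 95% intervals are normal intervals from it. Alternatives were RLE and upper-quartile factors, no filter, DESeq2 1.42.0, limma 3.58.1 on log2(FPKM + 0.1) and log2(FPKM + 1), the libraries compared alone, a replicate block, sex as a covariate, and leaving out each library. No group held libraries that looked like 1 sample deposited repeatedly (the lowest mean chi-square per gene between replicates was 2.88). The highest values were in cWT_SOD1, at 37.6 and 40.8 for replicate 1 with replicates 2 and 3. Pairs in the other groups reached at most 11.6.

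All 30 members are named. Of further pathway genes, up to 4 per list with the smallest p could be named and the rest are counted. The members and lists were chosen with earlier results of these data known, so their counts are descriptions. Promoters came from RefSeq on GRCm38.p6, another build than that of the files, and were used for sequence alone.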

Additional observations from a re-analysis of the deposited data

Results flagged for a closer look

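In 14 of 116 sets of 4 libraries, the highest or lowest library of a member stood apart from the other 3 by more than Dixon's 95% limit. For independent sets chance alone gives about 1 in 20. These sets share the same 16 libraries and are not independent, so the count cannot be weighed against that share. Replicate 4 of cKO_SOD1 was highest for Sqle (113.8 CPM), Tm7sf2 (18.0 CPM) and Insig1 (140.0 CPM) and lowest for Abca1 (94.78 CPM). Replicate 4 of cWT was highest for Cyp51 (218.9 CPM) and Ebp (27.58 CPM) and lowest for Npc1 (176.0 CPM). Replicate 1 of cWT_SOD1 was highest for Dhcr7 (32.3 CPM) and lowest for Nr1h3 (6.34 CPM), and replicate 2 was lowest for Ebp (21.18 CPM). Replicate 1 of cKO was highest for Tm7sf2 (19.0 CPM) and Cyp46a1 (52.44 CPM), replicate 4 of cKO was lowest for Abcg1 (86.1 CPM), and replicate 1 of cKO_SOD1 was highest for Nr1h3 (5.50 CPM).

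Of all tested genes 45.0% were called in either direction by edgeR's interaction test. Of the 29 tested members 23 were (edgeR adjusted p from 2.18e-07 for Abca1 to 0.0158 for Pmvk). The value tested was the log2 transgene effect in cKO minus that in cWT. Among synthesis enzymes it was 1.33 for Idi1, 1.15 for Fdps, 0.95 for Fdft1, 0.93 for Sqle, 0.89 for Lss, 1.22 for Cyp51, 0.96 for Tm7sf2 and 0.87 for Nsdhl. It was 0.70 for Dhcr7, 0.84 for Mvk, 0.33 for Pmvk, 1.01 for Mvd and 0.37 for Acat2. Among regulators and carriers it was 0.75 for Srebf2, 1.21 for Insig1 and 1.19 for Stard4. Among efflux, storage and turnover genes it was −2.37 for Abca1, −2.18 for Ch25h, −2.36 for Apoc1, −1.18 for Npc2, −0.87 for Nr1h3, −0.86 for Soat1 and 0.48 for Cyp46a1.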

How the results depend on the processing

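Under the alternatives tried, counts of called synthesis and efflux genes for cWT_SOD1 over cWT, for cKO_SOD1 over cWT_SOD1 and for the interaction stayed within 1.5 times of those given. For cKO_SOD1 over cKO they did not. The 1123 genes called became 2480 with the libraries compared alone and 685 to 1643 with each library left out. The 3 synthesis enzymes called lower became 5 with RLE factors or sex as a covariate, 6 with DESeq2, 8 with the libraries compared alone, 0 in each limma fit on FPKM, and 1 to 8 with each library left out. The 3 efflux, storage and turnover genes called higher became 5 with the libraries compared alone and 1 to 4 with each library left out. For cKO over cWT the 4 genes called became 17 with DESeq2, 9 with the libraries compared alone, 2 with limma on log2(FPKM + 0.1), and 2 to 9 with each library left out. The cause of these shifts was not tested.

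With replicate number as a block, the 3 synthesis enzymes called lower for cKO_SOD1 over cKO became 6, Insig1 was called and Soat1 lost its call; the block changed no call of a tested member for cWT_SOD1 over cWT, for cKO_SOD1 over cWT_SOD1 or for the interaction, and members were not followed under alternatives for cKO over cWT. Correlations between libraries of the same number ran from −0.25 to 0.31. In none of the 4 pairs of groups compared did all 4 numbers exceed 0.1, while for cKO_SOD1 with cWT, which were not compared, all 4 did (0.195 to 0.312). In 17 of 48 cases a library correlated best with its own number in another group, where 1 in 4 cases would be 12.

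Estimates that changed sign were near 0 and not called. For cWT_SOD1 over cWT, Scap was 0.0036 with upper-quartile factors, 0.0275 on log2(FPKM + 0.1) with or without the filter, 0.0265 on log2(FPKM + 1), and −0.0338 to 0.0265 with each library left out. For cKO_SOD1 over cKO, Tm7sf2 was −0.13 to 0.0096 with each library left out. For cKO_SOD1 over cWT_SOD1, Ebp was 0.0102 without a filter and −0.0487 to 0.0200 with each library left out. For the interaction without a filter Ebp was 0.0052 and Nr1h2 0.0023, and with each library left out Ebp was −0.0598 to 0.0194, Nr1h2 −0.0325 to 0.0393 and Npc1 −0.0168 to 0.0531. Npc1 was also −0.0137 on log2(FPKM + 0.1), filtered or not, and −0.0133 on log2(FPKM + 1).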
